A study of Mus musculus with 8 samples.

Results

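The genotype by oxygen interaction of mouse embryonic fibroblasts asks whether cells without the oxygen sensor Hif-p4h-1 answer hypoxia differently from wild-type cells. It is the hypoxia minus normoxia difference of the knockout less the same difference of the wild type, on the log2 scale, taken within each of 2 sets of arrays and averaged. A negative value means a smaller rise, or a larger fall, in the knockout. The comparison used all 8 arrays of the series and all 13647 genes that could be named and lay above a filter on low values, out of 18193 genes named on the array. Each array measured 1 sample, and the values are log2 expression values per probe set.

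The cells came from C57BL6/J mouse embryos at stage E14.5. There were 4 groups of 2 arrays: Hif-p4h-1 wild type and Hif-p4h-1 knockout, each kept in normoxia or exposed to hypoxia. The knockout mice are labelled Hif-p4h-1-/-. How the allele was made, the oxygen level, the length of the exposure and the culture conditions are not stated in the labels. By their titles, 4 arrays, 1 per group, form a second set. The labels do not tell whether paired arrays are separate cultures or embryos. The p-values thus reflect how far these arrays spread, which may be technical.

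Hif-p4h-1 is the protein of the gene Egln2, also called PHD1. With Egln1 and Egln3 it forms a family of oxygen-dependent prolyl hydroxylases. Their substrates are the alpha subunits of the transcription factor HIF (hypoxia-inducible factor), which the Vhl ubiquitin ligase degrades once they are hydroxylated. When oxygen falls, HIF alpha subunits persist, pair with Arnt and raise genes that bear hypoxia response elements, among them genes of glycolysis, mitophagy, blood vessel growth and matrix hydroxylation, and Egln1 and Egln3 themselves. Loss of a hydroxylase can therefore act on a target gene in normoxia, in hypoxia or in both, and the interaction compares these.

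No gene passed the test of the interaction at an adjusted p under 0.05, which is 0.0% of the genes tested with limma. The smallest adjusted p was 0.827, for Bnip3, and at an unadjusted p under 0.05 there were 329 genes (2.41%), 156 with a lower (1.14%) and 173 with a higher response in the knockout (1.27%). No gene passed in any of the 19 other settings either. The smallest adjusted p there was 0.188, reached by Bnip3 and Pdk1 in limma with each combination of genotype and set as a block. All results below are therefore sizes with their errors, and a gene that misses the threshold is not shown to respond alike in both genotypes. Every error of a log2 difference is the standard error of the limma fit with 2 arrays per group.

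Most interactions were small. The median standard error was 0.177, the average interaction lay between -0.98 and 1.38, and 236 genes had a size of at least 0.5 and 2 genes of at least 1. A gene is read by its brightest probe set, and fainter probe sets often gave smaller sizes. Of the genes named here, 44 had an interaction of at least 0.2 in size and further probe sets above the filter. Of these, 36 had the same sign on every further probe set, and 33 had under 0.5 times the size on at least 1. Many were named for a small p or a large size, and the share over all genes was not counted. These counts are thus a description only. Across genes, the interaction of the first set had a Pearson correlation of 0.115 with that of the second set over the 13647 genes, where genes are not independent replicates and all values of a set share 4 arrays. The 2 hypoxia responses themselves, which share no array, had correlations across genes of 0.71 (first set) and 0.798 (second set). No gene was called for hypoxia in opposite directions in the 2 genotypes, and 1163 genes were called in the same direction in both.

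Egln2, the targeted gene, had an interaction of its own. In normoxia wild type had log2 values of 8.84 and 9.07 and the knockout 8.0 and 8.34, in the order first set, second set. In hypoxia wild type had 8.95 and 9.13 and the knockout 8.66 and 8.85. The knockout lay below the wild type of its set at each oxygen level, but by less in hypoxia. The interaction was 0.50 ± 0.126, with 0.55 and 0.45 in the sets and a 95% interval of 0.21 to 0.79 (limma, unadjusted p = 0.00386, adjusted p = 1). Whether the 1 probe set of Egln2 lies in the deleted part is not given, so the labels are checked only in part, and what RNA the knockout signal reads was not tested.

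The other members of the HIF pathway had a median interaction near 0, with wide intervals for some. Hif1a, the alpha subunit found in most tissues, stood at 0.00 ± 0.083 with an interval of -0.19 to 0.19. Its 2 further probe sets above the filter gave 0.03 and 0.27, the latter outside that interval. Epas1, the HIF-2 alpha subunit, stood at -0.17 ± 0.373, and its interval of -1.03 to 0.69 leaves a wide range of sizes possible. Arnt, their shared partner, gave -0.12 ± 0.143, and Vhl, the substrate receptor of the ligase, -0.04 ± 0.131. Hif1an, the asparagine hydroxylase that blocks the transactivation domain of HIF alpha subunits, gave 0.18 ± 0.183. Egln1, the main oxygen-sensing hydroxylase, gave -0.07 ± 0.14 with a rise of 1.23 in wild type and 1.16 in the knockout.

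Cited2, which competes with HIF alpha subunits for the coactivators p300 and CBP and is raised by HIF, had the only negative interaction of the pathway list with an unadjusted p under 0.05. Wild type read 10.8 and 11.14 in normoxia and 11.59 and 11.71 in hypoxia. In the knockout it read 11.17 and 11.41 in normoxia and 11.53 and 11.82 in hypoxia. The knockout was above the wild type in normoxia and the groups overlapped in hypoxia, and the interaction was -0.30 ± 0.102 (limma, unadjusted p = 0.0194). Of 23 genes listed for the pathway, 21 were tested. Of these, 12 had a negative average (43.5% of all genes tested) and 8 a positive one (55.1%). The median of the 21 was -0.04, against 0.03 over all genes tested.

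HIF target genes had the most negative median of the lists of at least 5 tested genes. Of 55 genes listed, 52 were named on the array and 49 were tested. In wild type 37 of them rose (7.54% of all genes tested rose) and in the knockout 32 rose (4.98%), and none fell in either. Their interaction was negative on average in 40 of 49 (43.5% of all genes tested) and negative in both sets in 32 (22.4%). At an unadjusted p under 0.05, 14 were negative (1.14%) and 0 positive (1.27%), by limma, with none at an adjusted p under 0.05. The median was -0.24, with -0.25 and -0.26 in the sets, and it lay between -0.19 and -0.30 in the fits without 1 array. The median response was 1.09 in wild type and 0.78 in the knockout.

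Bnip3, a receptor for mitophagy at the outer mitochondrial membrane, had the smallest p of all genes. The normoxic log2 values were 8.86 and 9.35 for wild type and 9.76 and 10.11 for the knockout. The hypoxic values were 12.96 and 13.14 for wild type and 12.87 and 13.1 for the knockout. Both normoxic knockout arrays lay above both wild-type arrays, whereas in hypoxia the genotypes overlapped. The response was 3.95 ± 0.085 in wild type (limma, adjusted p = 3.95e-07) and 3.05 ± 0.085 in the knockout (adjusted p = 3.25e-06). The interaction was -0.90 ± 0.12, with -0.99 and -0.80 in the sets and a 95% interval of -1.17 to -0.62 (unadjusted p = 6.06e-05).

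Pdk1, the kinase that shuts the pyruvate dehydrogenase complex, showed the same shape. It read 7.27 and 6.94 in normoxic wild type and 7.9 and 7.83 in normoxic knockout. In hypoxia it read 11.02 and 10.79 in wild type and 10.78 and 10.75 in the knockout. The genotypes were apart in normoxia, by 0.76 ± 0.098, and in hypoxia the knockout lay 0.14 below. The interaction was -0.90 ± 0.139, with -0.87 and -0.93 in the sets (limma, unadjusted p = 1.73e-04, adjusted p = 1). Further probe sets above the filter gave -0.65 and -0.87.

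Ankrd37, an ankyrin repeat protein, and Slc16a3, the lactate exporter MCT4 from the glycolysis list, had interactions of the same size. Ankrd37 rose from 4.91 and 5.49 to 9.3 and 9.44 in wild type and from 5.9 and 6.07 to 9.24 and 9.28 in the knockout. Slc16a3 rose from 4.5 and 3.99 to 7.48 and 7.69 in wild type and from 5.2 and 5.07 to 7.47 and 7.63 in the knockout. For both genes the normoxic knockout arrays lay above both normoxic wild-type arrays, and the hypoxic arrays of Slc16a3 overlapped while those of Ankrd37 lay slightly below wild type. The interaction of Ankrd37 was -0.90 ± 0.203 with a 95% interval of -1.36 to -0.43. That of Slc16a3 was -0.93 ± 0.262 with an interval of -1.53 to -0.32. Low values are compressed on this scale, and the normoxic values of Slc16a3 lay near the filter value of 4.17.

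**Figure D1:**
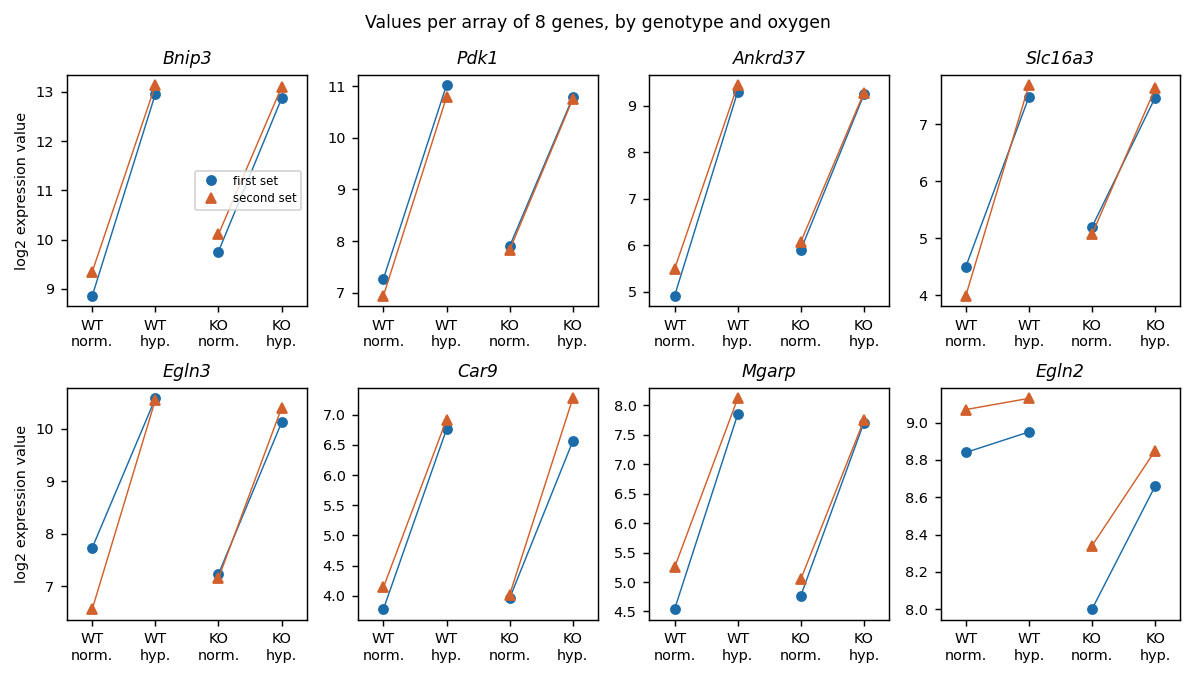
Log2 expression value of 8 genes on each of the 8 arrays, by genotype (WT, wild type; KO, knockout) and oxygen (norm., normoxia; hyp., hypoxia); circles are the first set, triangles the second, and lines join the arrays of 1 set and genotype. Bnip3, Pdk1, Ankrd37 and Slc16a3 start higher in the normoxic knockout and reach the wild-type level in hypoxia, while Mgarp starts at overlapping levels, Car9 starts under the filter value in both genotypes and Egln2 is lowest in the normoxic knockout.

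Not every strongly raised HIF target gene had this shape. Car9, a surface enzyme that hydrates carbon dioxide, read 3.78 and 4.14 in normoxic wild type and 3.96 and 4.02 in normoxic knockout, and 6.76 and 6.92 against 6.56 and 7.27 in hypoxia. Its genotypes overlapped in hypoxia, and its interaction was 0.05 ± 0.249 with an interval of -0.53 to 0.62 and opposite signs in the sets. All 4 normoxic values of Car9 lay under the filter value of 4.17, where log2 values are compressed, so a normoxic difference between the genotypes may not be visible for it. Mgarp, a mitochondrial protein, read 4.54 and 5.25 against 4.77 and 5.05 in normoxia and 7.85 and 8.12 against 7.71 and 7.75 in hypoxia, with an interaction of -0.27 ± 0.236. Egln3 stood at -0.35 ± 0.40, with sets of 0.04 and -0.74. Stc1 and Stc2, secreted glycoproteins, stood at -0.09 ± 0.206 and -0.26 ± 0.335. A difference of interactions between genes was not tested.

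The promoters of the 4 genes with the interactions near -0.90 and of 3 genes with large rises whose intervals include 0 are shown, since HIF binds the core letters ACGTG or GCGTG of hypoxia response elements. The 250 bases before the start of transcription are given 5′ to 3′ along the gene's strand, from RefSeq on build GRCm38.p6, with matches to ACGTG or GCGTG on either strand in capitals. A run of capitals longer than 5 letters holds overlapping matches, the capitals that end Pdk1 begin a match that runs past the start of transcription, and CACGT and CACGC are the same letters on the other strand. For Pdk1, the first of its 2 listed promoters is shown. Coordinates are chr7:138909507-138909756 (minus strand) for Bnip3, chr2:71872974-71873223 (plus) for Pdk1, chr8:45999851-46000100 (minus) for Ankrd37 and chr11:120948817-120949066 (plus) for Slc16a3. They are chr12:54203875-54204124 (minus) for Egln3, chr4:43506776-43507025 (plus) for Car9 and chr3:51396548-51396797 (minus) for Mgarp.
Bnip3: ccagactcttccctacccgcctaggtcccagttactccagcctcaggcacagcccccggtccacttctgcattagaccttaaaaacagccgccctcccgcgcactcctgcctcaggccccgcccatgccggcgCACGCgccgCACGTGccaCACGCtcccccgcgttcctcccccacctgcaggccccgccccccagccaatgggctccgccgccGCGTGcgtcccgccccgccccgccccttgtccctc
Pdk1: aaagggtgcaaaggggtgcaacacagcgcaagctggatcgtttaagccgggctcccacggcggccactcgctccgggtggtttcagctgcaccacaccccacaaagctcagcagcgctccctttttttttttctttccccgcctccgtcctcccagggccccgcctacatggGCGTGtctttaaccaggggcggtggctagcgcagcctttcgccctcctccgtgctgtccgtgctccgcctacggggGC
Ankrd37: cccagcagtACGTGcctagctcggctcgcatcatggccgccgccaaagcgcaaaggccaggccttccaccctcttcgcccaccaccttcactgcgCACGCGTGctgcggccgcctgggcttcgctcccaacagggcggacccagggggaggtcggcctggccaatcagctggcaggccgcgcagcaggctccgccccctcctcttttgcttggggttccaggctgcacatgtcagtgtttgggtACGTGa
Slc16a3: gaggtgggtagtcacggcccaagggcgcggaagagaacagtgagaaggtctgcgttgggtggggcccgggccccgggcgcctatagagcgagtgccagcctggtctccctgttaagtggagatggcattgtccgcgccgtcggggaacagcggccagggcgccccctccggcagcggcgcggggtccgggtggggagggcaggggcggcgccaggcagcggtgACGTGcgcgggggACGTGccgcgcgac
Egln3: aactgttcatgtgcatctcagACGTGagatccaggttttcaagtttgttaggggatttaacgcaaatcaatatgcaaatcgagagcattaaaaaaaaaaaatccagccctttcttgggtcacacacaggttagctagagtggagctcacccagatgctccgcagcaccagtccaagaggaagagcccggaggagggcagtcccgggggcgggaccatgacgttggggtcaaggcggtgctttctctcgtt
Car9: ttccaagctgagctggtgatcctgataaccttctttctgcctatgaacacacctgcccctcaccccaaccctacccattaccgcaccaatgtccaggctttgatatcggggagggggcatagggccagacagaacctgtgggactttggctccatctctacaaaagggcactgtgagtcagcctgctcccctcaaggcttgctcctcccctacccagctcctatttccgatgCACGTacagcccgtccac
Mgarp: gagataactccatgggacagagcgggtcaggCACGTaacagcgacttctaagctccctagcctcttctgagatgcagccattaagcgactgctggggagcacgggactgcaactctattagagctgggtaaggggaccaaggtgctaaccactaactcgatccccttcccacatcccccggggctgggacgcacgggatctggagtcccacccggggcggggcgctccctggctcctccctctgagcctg

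In the window from 250 bases before to 50 after the start, Bnip3 held 5 matches, Ankrd37 4, Pdk1 and Slc16a3 2 each, and Egln3, Car9 and Mgarp 1 each. These letters are common: 14380 of 32851 promoters of that length held at least 1 match (43.8%), as did 60.9% of the first listed promoters of 10973 genes tested. Among genes raised by at least 1 over both genotypes, 52 of 79 with a promoter in the table held one (65.8%). The share was 64.0% of 50 with a negative interaction in both sets and 69.0% of the other 29. The genes shown were picked by their interactions and rises, and how many promoters hold several matches was not counted. Their numbers of matches are thus no result about the interaction. A match is a description of the letters and no binding was measured.

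Further HIF target genes with an unadjusted p under 0.05 spanned several functions. Vegfa, the vascular growth factor, rose by 1.09 in wild type and 0.59 in the knockout, with an interaction of -0.50 ± 0.207. The collagen hydroxylases P4ha1 and Plod1 stood at -0.38 ± 0.105 and -0.59 ± 0.22, while Plod2, a lysyl hydroxylase too, stood at -0.10 ± 0.198. A further probe set gave -0.595 for P4ha1 and -0.23 for Plod1. Kdm3a, a histone H3K9 demethylase, gave -0.38 ± 0.115, and Ero1a, the oxidase that drives disulfide formation in the endoplasmic reticulum, -0.47 ± 0.109. Further probe sets of Ero1a gave -0.295 and -0.15. Ak4, a mitochondrial adenylate kinase, gave -0.62 ± 0.255, but its further probe sets gave -0.66, 0.12 and -0.08. Vldlr, a lipoprotein receptor, and Fam162a gave -0.36 ± 0.125 and -0.22 ± 0.088, and the faintest of 5 further probe sets of Vldlr gave 0.02. Prkaa1, a catalytic subunit of AMP-activated kinase, rose by 0.46 in wild type and had 0.07 in the knockout, an interaction of -0.39 ± 0.164. Prelid2 gave -0.69 ± 0.158, but a weaker probe set of it gave 0.09.

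Wsb1, a substrate receptor of a ubiquitin ligase, was the HIF target gene whose responses had opposite signs. Wild type read 10.79 and 10.56 in normoxia and 11.1 and 10.9 in hypoxia, a rise of 0.33 ± 0.067 (limma, adjusted p = 0.0161). In the knockout it read 11 and 10.87 in normoxia and 10.82 and 10.69 in hypoxia, a difference of -0.18 that did not pass (adjusted p = 0.13). Within each set the knockout was above the wild type in normoxia and below it in hypoxia. The interaction was -0.51 ± 0.095, with -0.49 and -0.52 in the sets.

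At which oxygen level the genotypes differed was described for the whole HIF target list. In normoxia, 25 of 49 genes were above wild type in the knockout in both sets (21.6% of all genes tested), with a median difference of 0.10. In hypoxia, 24 of 49 were below wild type in both sets (24.3%), with a median of -0.13. Bnip3, Pdk1, Ankrd37, Ak4 and Slc16a3 differed by 0.64 to 0.89 in normoxia and by -0.14 to 0.02 in hypoxia. Ero1a differed by 0.15 in normoxia and -0.32 in hypoxia, and Vldlr by 0.10 and -0.26, so that for these the larger difference lay in hypoxia. Stc2 was lower in the knockout at both levels, by -0.29 and -0.55.

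**Figure D2:**
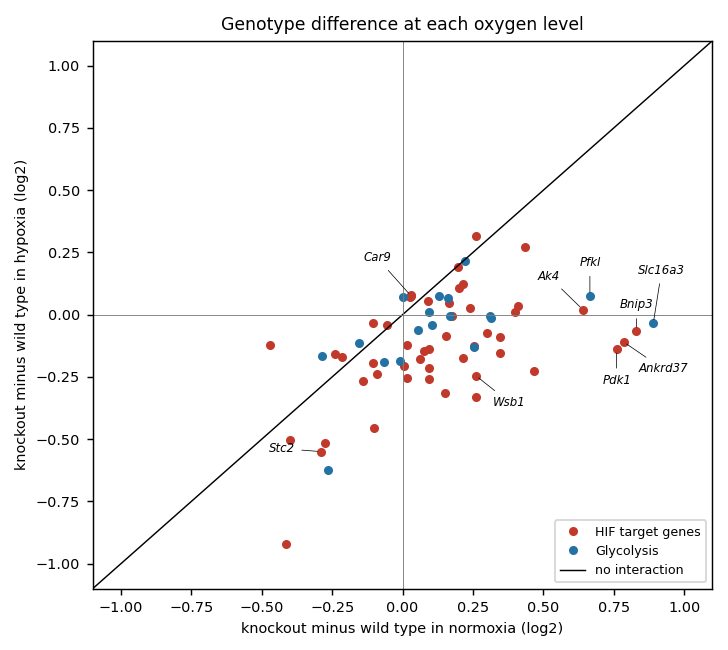
Knockout minus wild type in hypoxia (log2, vertical) against the same in normoxia (log2, horizontal) for the 49 tested HIF target genes (red) and 18 glycolysis genes (blue); the diagonal marks no interaction. Most points lie below the diagonal, and Bnip3, Pdk1, Ankrd37, Slc16a3, Ak4 and Pfkl lie far to the right at a height near 0.

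Glycolysis genes leaned the same way with smaller sizes. Of 22 listed, 18 were tested. In wild type 14 rose and 1 fell (7.54% and 8.85% of all genes tested), and in the knockout 14 rose and 0 fell (4.98% and 5.13%). The interaction was negative in 15 (43.5%), 13 of them in both sets (22.4%), and positive in both sets in 0 (30.2%). Their median was -0.14, with -0.13 and -0.20 in the sets and -0.10 to -0.22 in the fits without 1 array, where -0.22 was reached without hypoxic wild-type replicate 1. At an unadjusted p under 0.05, 5 were negative (1.14%) and 0 positive (1.27%) by limma, and none passed at an adjusted p under 0.05.

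Ldha, which turns pyruvate into lactate, read 12.51 and 12.55 in normoxic wild type and 12.81 and 12.88 in normoxic knockout, with 13.72 and 13.76 against 13.75 and 13.7 in hypoxia. The genotypes were apart in normoxia and overlapped in hypoxia, with an interaction of -0.33 ± 0.078. Pfkl, a subunit of phosphofructokinase, read 6.59 and 7.13 against 7.28 and 7.77 in normoxia and 8.97 and 9.67 against 9.02 and 9.77 in hypoxia. Its knockout arrays were above those of wild type within each set in normoxia, by 0.67 ± 0.104. The interaction was -0.59 ± 0.147, with -0.27 and -0.33 for further probe sets. Slc2a1, the glucose transporter GLUT1, stood at -0.39 ± 0.092 and 2 further probe sets at -0.43 and -0.49. Aldoa, an aldolase, stood at -0.32 ± 0.092 and 4 further probe sets between -0.36 and -0.05. Tpi1 and Pkm, which act in the same pathway and rose by 1.46 and 1.23 in wild type, stood at -0.09 ± 0.11 and -0.06 ± 0.157, with -0.31 and -0.14 for further probe sets of Tpi1. Of the glycogen genes, Gbe1, the branching enzyme, stood at -0.53 ± 0.184, while Pygl, the liver-type phosphorylase, had 0.22 and -0.81 in the sets.

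The lean was also described over genes chosen by their response averaged over both genotypes, a quantity that the interaction does not enter. Errors of the 2 quantities are uncorrelated only if both genotypes spread alike, which was not tested. The raised genes include HIF target and glycolysis genes and rest on the same 8 arrays, so they are no separate support. Over both genotypes 1854 genes rose (13.6%) and 2068 fell (15.2%). The 1854 raised genes had a median interaction of -0.06 (-0.08 and -0.02 in the sets), and 1166 were negative (43.5% of all genes tested). For the 106 raised by at least 1 the median was -0.22, and 87 were negative, 67 of them in both sets, against 22.4% of all genes tested. In the fits without 1 array, 70 to 88 of the 106 were negative, the fewest without hypoxic knockout replicate 1. For the 19 raised by at least 2 the median was -0.44, and 17 were negative. These 19 were 0.35 higher in the knockout in normoxia and 0.09 lower in hypoxia at the median, and the response of the knockout was 82.6% of that of wild type. The 2068 lowered genes had a median of 0.06 (0.10 and 0.00 in the sets), with 1364 positive (55.1%). In the fits without 1 array the median of the 1854 reached -0.03 without hypoxic wild-type replicate 1, and that of the 2068 reached 0.01 without hypoxic knockout replicate 1. For the 29 lowered by at least 1 the median was 0.09, with 0.30 and -0.03 in the sets. Of these, 20 were positive, 8 of them in both sets (55.1% and 30.2% of all genes tested). Averaged over the sets, each lean had the sign of a smaller response in the knockout. In the second set the lowered genes had no such lean.

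**Figure D3:**
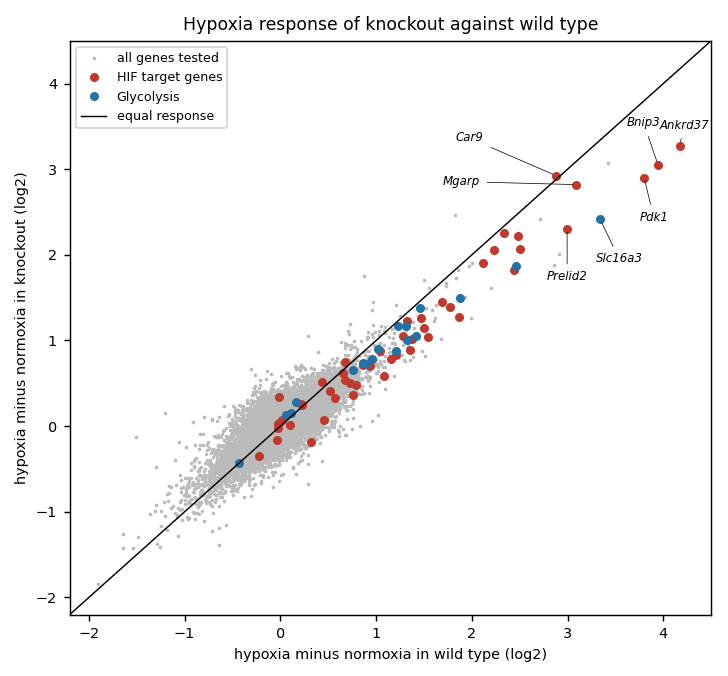
Hypoxia minus normoxia in the knockout (log2, vertical) against the same in wild type (log2, horizontal) for 13647 genes (grey), with the 49 HIF target genes in red and 18 glycolysis genes in blue; the line marks an equal response. The strongly raised red and blue points lie mostly below the line, with Car9 on it.

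The measured range and the RNA controls are values to set beside this lean. Bnip3, at 13.14, and Ldha, at 13.76, lay near the top of the table in hypoxia, whose highest value was 14.71. The hypoxic values of Ankrd37 and Slc16a3 reached 9.44 and 7.69. The log2 difference between 3′ and 5′ control probe sets had an interaction of -0.07 and 0.00 in the sets for Actb and of -0.09 and -0.06 for Gapdh. Their part in the result was not tested.

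The 10 genes with the largest falls in hypoxia over both genotypes had interactions whose 95% intervals included 0. Neat1, the noncoding RNA of paraspeckles, fell by 1.88 ± 0.198 over both genotypes and had an interaction of 0.07 ± 0.396, with 0.55 and -0.42 in the sets. Meg3, an imprinted noncoding RNA, stood at -0.15 ± 0.263 and Egr1, an immediate early factor, at 0.08 ± 0.157. Wdr5b, Nipal4, Srpx, H3f3b, Ankrd28, Cemip and Rfx5 lay between -0.09 and 0.39, and all 4 hypoxic values of Wdr5b were under the filter value. Cemip had the widest interval, from -1.57 to 1.51. Snhg14, another noncoding RNA, fell by 0.64 in wild type and by 1.39 in the knockout, an interaction of -0.75 ± 0.201.

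Outside the HIF lists, several genes with small p rose in wild type and had a smaller difference in the knockout. Rab6a, a GTPase of the Golgi, went from 10.63 and 10.62 to 11.38 and 11.39 in wild type, and from 10.82 and 10.8 to 11.2 and 11.2 in the knockout. The knockout rise was 0.39 against 0.76. No groups overlapped, and the interaction was -0.37 in each set, with -0.21 and -0.16 for further probe sets. Ric8a, a chaperone of G protein alpha subunits, rose by 0.42 in wild type and had 0.04 in the knockout, and Dse, a dermatan sulfate epimerase, rose by 0.57 against 0.06. Fbxo11, an F-box protein of a ubiquitin ligase, rose by 0.38 against -0.04, and Txndc17, a thioredoxin-like protein, by 0.47 against 0.13. The difference rests on 1 probe set for Txndc17, whose others gave interactions of -0.05 to -0.13 with wild-type differences of 0.06 to 0.14, and further ones of Ric8a gave -0.04 to -0.28. Tafa2, a secreted protein, had the most negative average of all genes tested, at -0.98 ± 0.259, with rises of 2.86 and 1.88. Dsp, the desmosome protein desmoplakin, and Selp, the adhesion receptor P-selectin, stood at -0.89 ± 0.348 and -0.89 ± 0.28. Other probe sets gave -0.16 and 0.17 for Selp and -0.41 for Dsp.

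Some genes with a positive interaction were highest in normoxic wild type. Usp18, which removes the ubiquitin-like protein ISG15, went from 5.44 and 4.5 in normoxia to 4.05 and 3.48 in hypoxia in wild type, and from 4.03 and 3.77 to 4.15 and 3.95 in the knockout. Its normoxic wild-type arrays were the highest of the 8, and the other 6 lay under the filter value of 4.17. With a mean of 4.17 it passed the filter only through normoxic wild type, and differences among the other arrays are not resolved. The fitted interaction, 1.36 ± 0.281 with 1.51 and 1.20 in the sets, is thus given as a description with no test. Heyl, a Notch target and repressor, read 6.22 and 6.34 in normoxic wild type and between 5.12 and 5.77 on the other 6 arrays, an interaction of 0.88 ± 0.237, but fainter probe sets gave 0.38 and 0.01. Irgm2, an interferon-induced GTPase, fell by 0.71 in wild type and had 0.07 in the knockout, an interaction of 0.78 in each set.

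Bmp6, a bone morphogenetic protein, had genotypes that crossed. It went from 4.88 and 4.75 to 4.57 and 4.53 in wild type and from 4.34 and 4.21 to 4.93 and 4.81 in the knockout. The knockout rose by 0.60 (limma, adjusted p = 0.03), the wild-type difference of -0.27 did not pass (adjusted p = 0.221), and the interaction was 0.86 ± 0.189. As3mt, an arsenite methyltransferase, rose by 1.05 in the knockout and had 0.29 in wild type. Sesn2, a stress-induced inhibitor of mTORC1 signalling, fell by 0.57 in wild type and had -0.03 in the knockout, but a weaker probe set gave an interaction of 0.09. Other probe sets were also close to 0 or negative for Nsg1 (0.05), Mthfd1 (-0.03 and -0.36), Lpar2 (0.01), Dnajc8 (0.08) and Cenpn (0.09), against 0.47, 0.36, 0.69, 0.33 and 0.50 for the brightest ones.

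The remaining positive genes had low or uneven values. Trpv4, a cation channel, and Olfr157, an olfactory receptor, stood at 0.68 ± 0.194 and 0.74 ± 0.204 with no log2 value above 5.31. Sla, Trbv1, Ucn2 and Slc9a5 stood between 0.82 and 0.98 with standard errors of 0.261 to 0.413.

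Interferon response genes had a positive median. Of 50 listed, 41 were tested, and 36 had a positive interaction (55.1% of all genes tested), 25 of them in both sets (30.2%) and 3 with an unadjusted p under 0.05 (1.27%): Usp18, which passed the filter only through normoxic wild type, Psmb8, a subunit of the immunoproteasome, and Parp12. The median was 0.24, with 0.34 and 0.17 in the sets. The median response was -0.36 in wild type and -0.02 in the knockout, where 11 and 2 genes fell (8.85% and 5.13% of all genes tested) and 1 and 2 rose. In normoxia 23 of 41 were below wild type in the knockout in both sets (31.3%), with a median difference of -0.29, and in hypoxia the median was -0.01. Without normoxic wild-type replicate 2 the median was 0.39. It was 0.16 without hypoxic wild-type replicate 1, 0.17 without normoxic wild-type replicate 1 and 0.17 with the mean of all probe sets of a gene.

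Macrophage markers moved beside the interferon list. Of 12 markers 11 were tested, with Itgam below the filter, and 9 had a positive interaction (55.1% of all genes tested). The median was 0.27 (0.37 and 0.21 in the sets). The log2 of their summed level was 11.91 and 11.4 in normoxic and hypoxic wild type of the first set and 10.41 and 10.15 in the second, against 9.35 to 10.2 in the 4 knockout arrays. Msr1, a scavenger receptor of macrophages, went from 7.83 and 6.29 to 5.57 and 5.54 in wild type and lay at 4.96 to 5.63 in the knockout, an interaction of 1.38 ± 0.493, with 0.20 and 0.54 for other probe sets above the filter. Skeletal muscle markers were high in wild type of the first set alone, at 11.18 and 11.01 against 8.24 to 8.69 on the other 6 arrays. In bulk RNA, fewer cells of a type and less RNA per cell cannot be told apart, and the part of these cells in the interaction was not tested. Fibroblast markers had a summed level between 16.22 and 16.48 on the 8 arrays, and all 12 were above the filter. The median interaction was -0.01 for fibroblast, 0.16 for muscle, 0.12 for epithelial, 0.08 for endothelial, -0.06 for neural and -0.23 for cartilage markers, of which 12, 7, 5, 3, 4 and 3 were tested. No erythroid marker was above the filter, and 3 sex-linked genes had a median of -0.19.

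**Figure D4:**
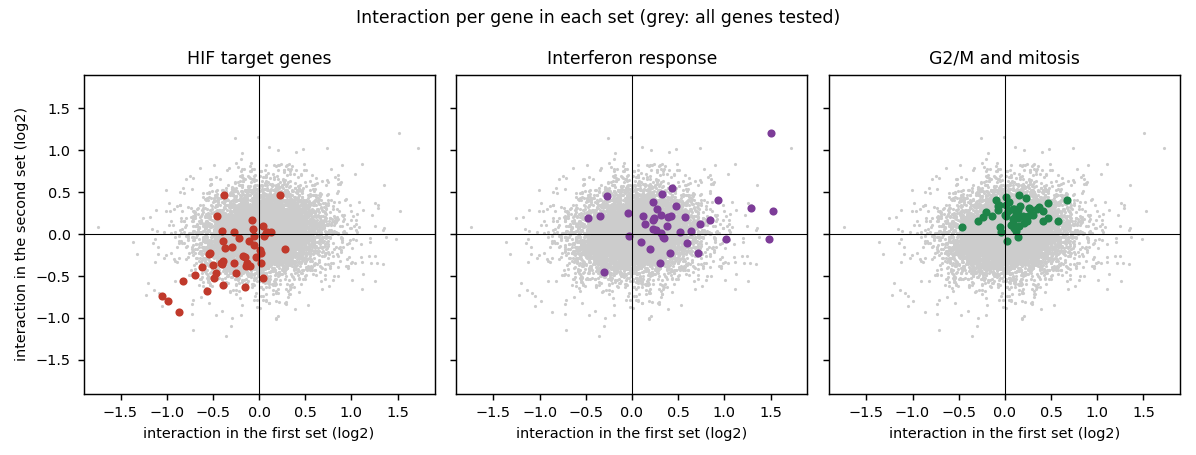
Interaction in the second set (log2, vertical) against that in the first set (log2, horizontal), with 13647 genes in grey and the tested HIF target genes (49), interferon response genes (41) and genes of G2/M and mitosis (52) in colour. HIF target genes lie mostly to the lower left, with 32 negative in both sets, and 38 genes of G2/M and mitosis lie in the upper right.

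Cell division genes also had positive medians, of smaller size. Of 52 tested genes of G2/M and mitosis, 47 were positive on average (55.1% of all genes tested), 38 positive in both sets (30.2%) and 0 negative in both sets. Their median was 0.17, with 0.12 and 0.22 in the sets, and 0.04 without hypoxic knockout replicate 2 and 0.09 without normoxic wild-type replicate 1. At an unadjusted p under 0.05 there were 6 (1.27%): the kinase Nek2 (0.42 ± 0.124), Pttg1, the inhibitor of separase (0.28 ± 0.101), the kinesin Kif18b (0.54 ± 0.198), Cdc20, an activator of the anaphase-promoting complex (0.35 ± 0.13), Cdk1 (0.27 ± 0.101) and Dlgap5 (0.35 ± 0.147). Further probe sets gave 0.00 and -0.22 for Nek2, 0.06 for Dlgap5, 0.49 and 0.12 for Pttg1 and 0.31 and 0.11 for Cdc20. In normoxia 43 of 52 were below wild type in the knockout in both sets (31.3%), with a median of -0.18, and in hypoxia the median was -0.01. Cdk1 fell by 0.65 in wild type and by 0.38 in the knockout. Genes of S phase had a median of 0.10 with 34 of 46 positive (55.1% of all genes tested), and 3 had an unadjusted p under 0.05 (1.27%), Rpa1, Lig1 and Tk1, which act in DNA synthesis and nucleotide supply. That median was 0.04 without hypoxic wild-type replicate 2 and 0.05 with the mean of all probe sets of a gene.

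Immediate early genes had a negative median of -0.15, with 22 of 26 negative (43.5%) and 15 negative in both sets (22.4% of all genes tested), and it was -0.09 without normoxic wild-type replicate 1 and -0.10 with the mean of all probe sets of a gene. Jun rose by 0.43 in wild type and had 0.15 in the knockout, an interaction of -0.28 ± 0.106, and a weaker probe set gave 0.03. Klf6 rose by 0.29 against 0.04, an interaction of -0.25 ± 0.088, and its 4 further probe sets gave -0.11 to -0.26.

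The other 18 lists had medians between -0.07 and 0.09, against 0.03 over all genes tested. They covered the HIF pathway, glycogen, respiration, autophagy, histone demethylases, p53, ATF4, NRF2, cholesterol, NF-kB, matrix, myofibroblast, Egln2 partner, growth factor, clock, lipid, ribosomal protein and nuclear noncoding RNA genes. Autophagy and mitophagy genes had a median of 0.01, so the interaction of Bnip3 was not shared by that list at the median. Within these lists Btg2, an antiproliferative p53 target, stood at 0.37 ± 0.142, Tgfbi, a matrix protein raised by TGF-beta, at 0.42 ± 0.131 and Tgfb1 at 0.52 ± 0.198. Asns, asparagine synthetase, stood at -0.23 ± 0.091, Slc7a11, the cystine transporter, at -0.63 ± 0.272 and Edn1, a vasoconstrictor peptide, at -0.44 ± 0.172. Nrp1, a coreceptor for vascular growth factors, stood at -0.30 ± 0.115 and the noncoding RNA Airn at -0.58 ± 0.22. Sox9, named from the cartilage markers, stood at -0.43 ± 0.167. Further probe sets gave -0.02 for Sox9, -0.03 for Asns, 0.08 for Tgfb1, -0.24 for Slc7a11, -0.45 and -0.59 for Airn, 0.41 for Btg2, 0.13 to 0.41 for Tgfbi and -0.24 to 0.06 for Nrp1. All of these missed the adjusted threshold.

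**Figure D5:**
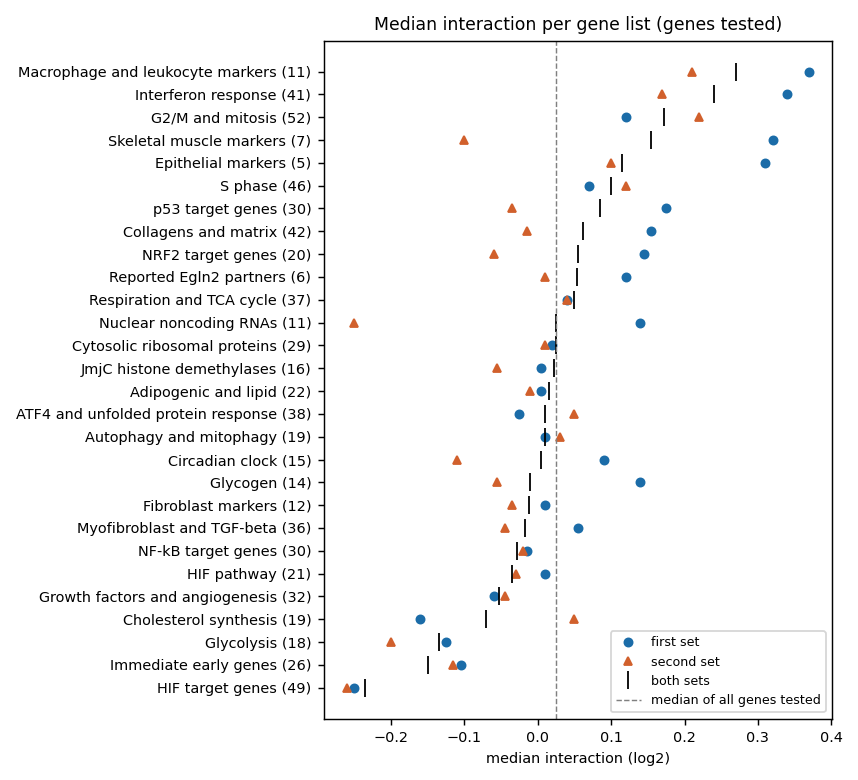
Median interaction (log2) per gene list with at least 5 tested genes, the number tested in parentheses; circles are the first set, triangles the second, vertical ticks both sets, and the dashed line the median of all genes tested. HIF target genes (-0.24) lie lowest with both sets close together, and interferon response genes (0.24) and macrophage markers (0.27) lie highest.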

How the data were processed

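The deposited values are on the log2 scale, with 1 for each probe set on each array, and were made by RMA per the submitters' processing notes. RMA forces arrays to a common distribution, so a change shared by all transcripts is not visible. Not given in the sources used here are the build and whether the 8 arrays were normalized together. Per the labels, cRNA came from 5 ug of total RNA. Array medians lay between 5.01 and 5.12, and the number of arrays limits the precision.

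Of 45037 probe sets other than 64 controls, 34945 had 1 gene symbol in the platform annotation, 932 several and 9160 stayed unnamed. Symbols were updated with RefSeq's GRCm38.p6 table, where 34741 matched. The probe set of highest mean stood for a gene, and genes under the 25th percentile (4.17) were left out. One limma 3.58.1 model in R 4.3.3 (group means plus the set as a block, eBayes with trend) gave every contrast, with Benjamini-Hochberg adjustment over 13647 genes. It was tested on simulated data. The set pairs the arrays: the second minus first set differences of the groups correlated at 0.71 to 0.85 over 6 pairs. The correlation was 0.85 within wild type and 0.83 within the knockout, and 0.71 to 0.77 between genotypes. A block on the set alone does not take up this closer pairing within a genotype.

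Members, the 33 gene lists and tests were chosen with earlier results of these data known. Named genes are 8 of the HIF pathway, those of smallest p or largest size in each direction with the same sign in both sets, the 10 largest rises and falls over both genotypes, and list members of smallest p, apart from 3 unknown gene models. Cdk1, Dlgap5 and further HIF target, glycolysis and lowered or raised members named as counterexamples were chosen after their values were seen. Alternatives were the block, the filter, centring, quantile normalization, the eBayes trend, probe set choice and leaving out each array.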

Additional observations from a re-analysis of the deposited data

Results flagged for a closer look

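For 14 of the genes named above, every wild-type pair of arrays moved one way with hypoxia and every knockout pair the other way. Genes were named partly for a small p and the same sign in both sets, which favours this pattern. Its share over all genes tested is not given, so the count is a description only. The interaction of none of these 14 genes passed the test at an adjusted p under 0.05. A difference between the genotypes was thus not shown for any of the 14. Higher hypoxic values in wild type with lower ones in the knockout gave interactions of -0.51 for Wsb1, -0.42 for Fbxo11, -0.23 for Asns and -0.30 for Nrp1. The opposite order gave 1.36 for Usp18, 0.86 for Bmp6, 0.78 for Irgm2, 0.69 for Lpar2, 0.68 for Trpv4, 0.50 for Cenpn, 0.74 for Olfr157, 0.67 for Psmb8, 0.54 for Kif18b and 0.27 for Tk1. For Usp18 all arrays other than normoxic wild type lay under the filter value of 4.17, so its direction in the knockout is not resolved. No group has more than 2 arrays, so no array could be singled out within a group.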

How the results depend on the processing

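No gene passed the test of the interaction in any of the 19 other settings: the fit with no replicate block (0 calls, as with it), other blocks, filters, scalings, probe sets and each fit without 1 array. With an unadjusted p under 0.05 there were 24 lower and 61 higher responses without the block and 85 to 339 and 79 to 270 without 1 array. Of 96 genes named above, 77 kept their direction in every setting. Many of the 96 were named for a small p and the same sign in both sets, which favours a kept direction. The count is thus no measure of how stable interactions are. Counts of genes called for hypoxia depended on the fit. In wild type 2237 became 20 with no replicate block, 1133 with the set as a random block, 1342 without the eBayes trend, 1448 with the mean of all probe sets and 490 to 1975 without 1 array. In the knockout 1380 became 12, 517 and 603 in the first 3 of these and 121 to 1335 without 1 array. The same 1380 became 2308 with each combination of genotype and set as a block. Over both genotypes 3922 became 99 with no replicate block and 2554 to 3315 without 1 array. The cause was not tested. The median of HIF target genes was -0.23 with no filter, -0.25 centred, -0.21 after quantile normalization, -0.18 with the mean of all probe sets, -0.25 and -0.26 in the sets and -0.30 to -0.19 without 1 array. That of glycolysis was -0.20 in the second set and -0.22 to -0.10 without 1 array. Medians ran from -0.07 to -0.03 for raised and 0.01 to 0.10 for lowered genes without 1 array. The sign turned without 1 array for Egln1 (-0.21 to 0.07), Egln3 (-0.96 to 0.26), Epas1 (-0.67 to 0.33), Car9 (-0.21 to 0.30), Stc1 (-0.29 to 0.11), Stc2 (-0.71 to 0.19), Plod2 (-0.33 to 0.14), Tpi1 (-0.20 to 0.033), Pkm (-0.23 to 0.12), Pygl (-0.87 to 0.28), Neat1 (-0.51 to 0.64), Wdr5b (-0.087 to 0.52), Nipal4 (-0.70 to 0.93), H3f3b (-0.20 to 0.59), Meg3 (-0.50 to 0.20), Ankrd28 (-0.33 to 0.15), Egr1 (-0.10 to 0.26) and Cemip (-0.83 to 0.77). With the mean of all probe sets, Stc1 was 0.10 and Mthfd1 -0.012. The medians of the interferon, cell division and immediate early lists under other settings were added after seeing the data. With the mean of all probe sets the S phase median went from 0.10 to 0.05 and the immediate early median from -0.15 to -0.10. With 2 arrays per group, sizes below the median standard error of 0.177 are poorly resolved.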
